A study of Mus musculus with 12 samples.

Results

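Mcpt8 and the granzyme genes Gzmb, Gzmc, Gzmd, Gzme and Gzmf belong to a cluster of serine protease genes on mouse chromosome 14, and their mRNA was followed while fibroblasts were converted to pluripotent stem cells. The 6 genes were taken by symbol from a table of 24098 genes. Mcpt8 had been picked because it dropped from a very high day 0 level, so its differences from day 0 are a description and support nothing. The other 5 were taken along as its relatives in the cluster.

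Mouse embryonic fibroblasts (MEFs) with an EGFP cassette behind the stop codon of Oct4 were infected with pMXs retroviruses carrying Oct4, Sox2, Klf4 and c-Myc (OSKM). D0 was the starting culture of MEFs, labelled wild type, in serum medium, and D3 the unsorted culture 3 days after induction in FF medium. FF medium holds serum replacement, LIF, basic fibroblast growth factor, ascorbic acid and CHIR99021, among other supplements. On days 6 and 9 the cells were divided by Thy-1, a surface protein of fibroblasts, into Thy-1- (D6T-, D9T-) and Thy-1+ (D6T+, D9T+) cells. On days 12 and 16 they were divided by SSEA-1, a carbohydrate on the surface of mouse pluripotent cells, into D12S+, D16S+, D12S- and D16S-. Established iPSCs and the embryonic stem cell line ES-D3 (mESCs), both grown in FF medium per the labels (the study's methods name other stem cell media), closed the series. The mESCs carried no OSKM viruses and come from another line, and the strain of the MEFs is not given in the sources used here. The change of medium and the infection both fell between D0 and D3 and cannot be told apart. Each condition was 1 library with no replicate, so the differences have no replicate check and no p-value is given.

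Granzymes are serine proteases that cytotoxic T cells and natural killer cells store in granules and deliver into target cells through pores of perforin. Granzyme B, the product of Gzmb, cuts after aspartate and sets off apoptosis, whereas Gzmc, Gzmd, Gzme and Gzmf belong to a group of closely related genes that multiplied in rodents. Mcpt8 encodes mast cell protease 8, which is used as a marker of mouse basophils, and the same locus holds chymase genes of mast cells and Ctsg, the cathepsin G gene of neutrophils. None of these genes is a customary marker of fibroblasts.

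The values are FPKM, the fragments assigned to a gene scaled to the length of its transcript and to the mapped fragments of the library, so levels can be compared between genes per length. Differences are in log2(FPKM + 1), first library minus second, and a 2-fold difference on this scale was called. The total FPKM per library ranged from 484968 in D16S+ to 648264 in D0. The depth relative to D0, estimated from the steps between low values, ranged from 0.967 in D9T+ to 1.56 in D6T-. The same steps gave an estimate of the fragments behind each member's value, starting from its lowest value as 1 fragment. This unit was refitted on the member's values under 30 fragments. All 20 such values came within 0.15 of a whole number, which the refitting favours. Counting intervals below are exact 95% Poisson intervals on these estimates, and cover counting error only. The cuffdiff interval is the one deposited with each FPKM, and it is modelled from a single library.

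In the mm9 build the cluster ran from Cma1 to Gzmb over 321 kb (chromosome 14, 56560288 to 56881097) and held 15 protease genes, of which 9 are no members. All 6 members lie on the minus strand and are annotated as protein coding. Mcpt8 (56701003 to 56704053) has 5 exons, Gzme (56736456 to 56739468) up to 6, and Gzmd (56748393 to 56751445) 5. Gzmf (56824103 to 56830244), Gzmc (56850238 to 56853493) and Gzmb (56877693 to 56881097), with 5 exons each, follow at the far end.

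Because reads with more than 1 locus had been removed, the sequences of the members were examined for stretches they share. Every stretch of 100 bases of the Mcpt8, Gzme, Gzmc and Gzmb transcripts was found at 1 place only in the mm9 genome, counting exact matches on both strands and stretches across exon junctions. The share was 99.8% in Gzmd and 99.9% in Gzmf. For stretches of 50 bases it was 75.1% in Gzme, 76.8% in Gzmd, 89.0% in Gzmf and 96.0% in Gzmc, whereas Mcpt8 and Gzmb stayed at 100.0%. The Gzmd and Gzme transcripts were identical at 94.2% of aligned bases, against 62.5% between Mcpt8 and Gzme. The read length is not given in the sources used here, so the levels of Gzme, Gzmd, Gzmf and Gzmc carry an uncertainty from shared reads that the level of Mcpt8 does not.

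**Figure D1:**
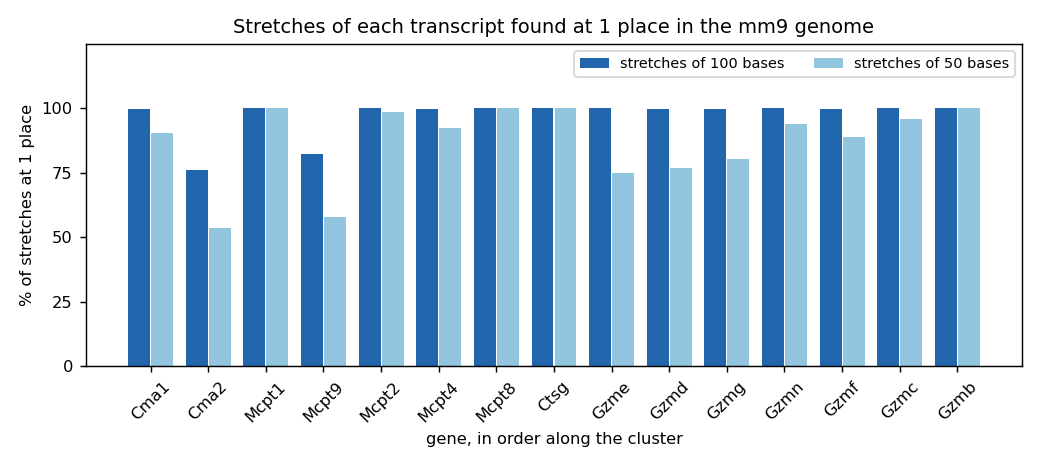
Share of the stretches of each transcript that occur at 1 place in the mm9 genome (y axis, percent), for the 15 protease genes in order along the cluster (x axis), with dark bars for stretches of 100 bases and light bars for 50 bases. Mcpt8 and Gzmb stand at 100.0% at both lengths, Gzme and Gzmd at 75.1% and 76.8% for 50 bases, and Cma2 and Mcpt9 are the lowest.

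The promoters of Gzme and Gzmd are shown because these near-identical genes were both measured in D0 but did not keep the same ratio later. The 250 bases before the RefSeq starts were placed in mm9 by exact match, each at 1 place, and were identical between Gzme and Gzmd at 95.6% of aligned bases. A window of 60 bases within them could be aligned with the same window of 3 genes whose transcripts were at or near 0, Gzmg, Gzmf and Gzmc. The lines below give the minus strand from 5′ to 3′, with capitals for the 8 bases at the position of the cAMP response element, TGACGTCA.
Gzme: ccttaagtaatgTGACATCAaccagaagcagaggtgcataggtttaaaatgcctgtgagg
Gzmd: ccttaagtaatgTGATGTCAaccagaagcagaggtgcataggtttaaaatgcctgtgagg
Gzmg: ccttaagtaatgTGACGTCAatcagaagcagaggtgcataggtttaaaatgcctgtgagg
Gzmf: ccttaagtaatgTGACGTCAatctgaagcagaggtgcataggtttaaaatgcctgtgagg
Gzmc: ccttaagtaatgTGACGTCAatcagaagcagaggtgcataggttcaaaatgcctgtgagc
The windows lie at chr14:56739477-56739536 (Gzme), chr14:56751444-56751503 (Gzmd), chr14:56778446-56778505 (Gzmg), chr14:56830279-56830338 (Gzmf) and chr14:56853504-56853563 (Gzmc). Against Gzme, the window differed at 2 bases in Gzmd, 2 in Gzmg, 3 in Gzmf and 4 in Gzmc. The full element was in the windows of Gzmg, Gzmf and Gzmc and not in those of Gzme and Gzmd. Over the same 250 bases before 32851 RefSeq starts (GRCm38.p6), 1.55% held it.

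The corresponding stretch before Mcpt8 is shown whole, since this gene had the highest level of the cluster. Capitals mark TGTGGT, the core letters of the RUNX site, on either strand (ACCACA where it is on the other).
Mcpt8: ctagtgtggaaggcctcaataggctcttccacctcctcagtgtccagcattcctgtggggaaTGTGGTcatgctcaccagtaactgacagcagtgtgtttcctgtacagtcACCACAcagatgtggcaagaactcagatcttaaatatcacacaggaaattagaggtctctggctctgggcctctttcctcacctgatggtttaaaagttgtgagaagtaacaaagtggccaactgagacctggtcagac
It lies at chr14:56704035-56704284 on the minus strand of mm9, and holds 2 matches that do not overlap. The upstream 250 bases of Gzme, Gzmd, Gzmg, Gzmf, Gzmc and Gzmb held 2 matches each as well, and 4614 of the 32851 such promoters held at least 1 on either strand. TGANTCA, the AP-1 letters, was found only before Gzmb of the 8 genes searched (6.75% of all promoters), and TATAAA only before Gzmn (12.4%). These letters were chosen after the sequences had been seen, and a match is no site.

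Mcpt8 was at 1201 FPKM in D0, where it ranked 74 among 24098 genes, between Ifitm2 (1202), an interferon-induced membrane protein gene, and Rps18 (1187), a ribosomal protein gene. It was at 21.5 FPKM in D3. In the Thy-1- cells it was at 12.0 FPKM on day 6 and 3.64 on day 9, against 166 and 37.4 in the Thy-1+ cells of those days. Every Thy-1+ library was therefore above D3, and every Thy-1- library below it. In the later fractions Mcpt8 was at 4.00 FPKM in D12S+ and 9.30 in D12S-, then at 0.263 in D16S+ and 4.43 in D16S-. It was listed at 0 in iPSCs and was at 0.0653 FPKM in mESCs, which is about 1 fragment. D0 alone held 82.3% of the Mcpt8 FPKM summed over the 12 libraries.

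In order of level the libraries ran D0, D6T+, D9T+, D3, D6T-, D12S-, D16S-, D12S+, D9T-, D16S+, mESCs and iPSCs. By the cuffdiff intervals no neighbours in this order were apart, and of 66 pairs of libraries 3 were: D6T+ (interval 3.17 to 330 FPKM) against D16S+, mESCs and iPSCs. The D0 interval of Mcpt8 ran from 0 to 2422 FPKM. By the counting intervals, which are far narrower, D6T- could not be separated from D12S-, nor D16S- from D12S+, D12S+ from D9T-, D16S+ from mESCs and mESCs from iPSCs.

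**Figure D2:**
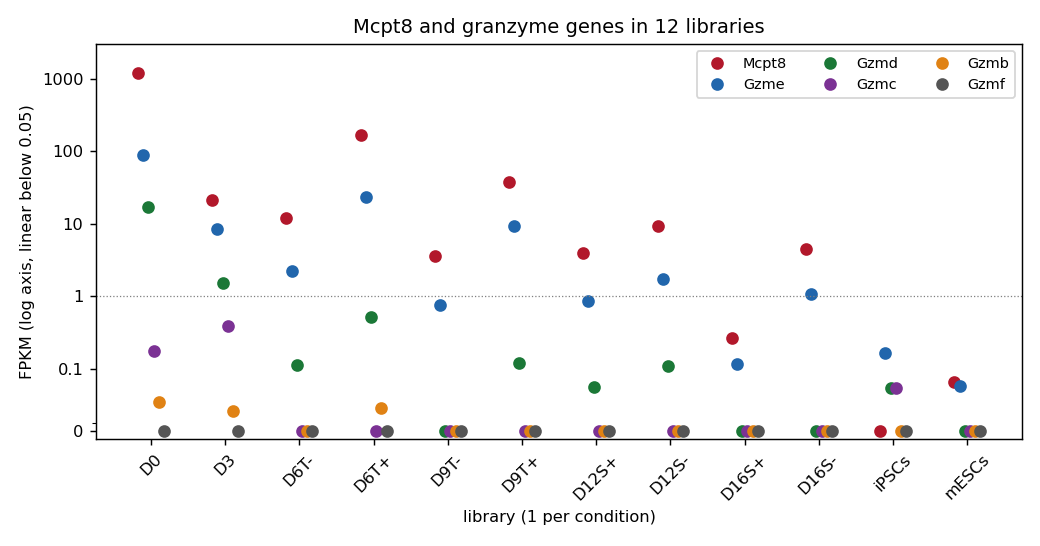
FPKM of the 6 genes (colours) in each of the 12 libraries (x axis, 1 library per condition), on a log axis that is linear below 0.05 FPKM, with a dotted line at 1 FPKM. Mcpt8 starts at 1201 FPKM in D0 and reaches 166 FPKM in D6T+, with 12.0 FPKM in D6T-. Gzme lies below it in each library but iPSCs, and Gzmb, Gzmc and Gzmf stay under 1 FPKM.

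Gzme, the next gene beyond Ctsg, followed the same order at lower levels. It was at 89.4 FPKM in D0, 8.53 in D3, 2.25 in D6T- and 23.3 in D6T+. D6T+ was thus above D3, and D6T- below it. On day 9 it was at 0.769 FPKM in the Thy-1- and 9.28 in the Thy-1+ cells. It then stood at 0.861 FPKM in D12S+, 1.72 in D12S-, 0.117 in D16S+ and 1.08 in D16S-. In iPSCs it was at 0.164 FPKM and in mESCs at 0.0581, about 3 and 1 fragments. The first 9 libraries in the order of Gzme were the first 9 in the order of Mcpt8, in the same sequence. By the cuffdiff intervals 4 of 66 pairs were apart for Gzme, namely D0 (2.89 to 176 FPKM) against D9T-, D16S+, iPSCs and mESCs.

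Gzmd was at 16.9 FPKM in D0 and 1.53 in D3, and below 1 in each other library. It was at 0.112 FPKM in D6T- and 0.512 in D6T+, about 3 and 11 fragments. It was at 0.121 FPKM in D9T+, 0.0564 in D12S+, 0.109 in D12S- and 0.0537 in iPSCs, each 1 or 2 fragments. Outside D0 and D3 its values thus rest on few fragments. It was listed at 0 in D9T-, D16S+, D16S- and mESCs. Unlike Mcpt8 and Gzme, Gzmd was therefore lower in D6T+ than in D3, with counting intervals of 0.255 to 0.915 FPKM against 1.09 to 2.09.

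The ratio between the near-identical genes Gzme and Gzmd followed from these levels. Gzme was 5.28 times Gzmd in D0 and 5.59 times in D3, but 45.5 times in D6T+. As a share of the estimated Gzmd and Gzme fragments together, Gzmd took 16.2% in D0 (exact binomial interval 14.5% to 18.0%, 1786 fragments) and 15.4% in D3 (11.2% to 20.5%, 253 fragments). It took 2.19% in D6T+ (1.10% to 3.88%, 503 fragments) and 1.32% in D9T+ (0.160% to 4.67%, 152 fragments). In D6T- it was 4.84% (1.01% to 13.5%, 62 fragments), an interval that reaches into those of D3 and of D6T+. The intervals of D0 and D3 were apart from those of D6T+ and D9T+, at the level of counting error. The remaining libraries held 33 fragments or fewer of both genes and could not be placed.

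The ratio of Mcpt8 to Gzme also differed between libraries. Per length, Mcpt8 was 13.4 times Gzme in D0 and 2.52 times in D3, 7.14 times in D6T+ and 5.31 times in D6T-. It was between 4.04 and 5.40 times Gzme on days 9 and 12 and 4.12 times in D16S-.

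The other members were at the limit of detection. Gzmb was at 0.0363 FPKM in D0, 0.0243 in D3 and 0.0288 in D6T+, 1 fragment in each, and was listed at 0 in the other 9 libraries. Gzmc was at 0.177 FPKM in D0, 0.393 in D3 and 0.0539 in iPSCs, about 3, 10 and 1 fragments, and was listed at 0 elsewhere. It was the only member with its highest value in D3, but the counting intervals of D0 (0.0364 to 0.516 FPKM) and D3 (0.189 to 0.724) overlapped. Gzmf was listed at 0 in all 12 libraries. Of the 72 member values, 35 were listed at 0. At least 1 FPKM in at least 1 library was reached by 3 of the 6 members, Mcpt8, Gzme and Gzmd, the last only through D0 and D3.

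The start of reprogramming was considered next, by setting D3, D6T+, D16S- and iPSCs against D0. These comparisons share the D0 library, by which Mcpt8 was picked. In D3, 3 of 6 members (Mcpt8, Gzme and Gzmd) were called lower, where 8.67% of 14178 kept genes were, and 0 higher, where 5.76% were. Mcpt8 was 55.7-fold lower in FPKM (log2 difference -5.74), Gzmd 11.1-fold (-2.83) and Gzme 10.5-fold (-3.25). The same 3 were called lower in D6T+, where 4.39% of kept genes were (0 members and 4.83% of genes higher), with log2 differences of -2.84, -3.57 and -1.90 for Mcpt8, Gzmd and Gzme. They were also the called members in D16S- (11.4% of kept genes) and in iPSCs (21.6%). None of the 6 was called higher there, where 12.8% and 18.7% of kept genes were. In D16S- Mcpt8 was 271-fold and Gzme 83.1-fold lower than in D0, and Gzmd was listed at 0. In iPSCs Gzme was 545-fold lower and Mcpt8 was listed at 0.

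Since D3 was unsorted and D6T+ was selected for Thy-1, fewer fibroblasts and less mRNA per fibroblast cannot be told apart in these bulk libraries. From D3 to D6T-, 2 of 6 members (Gzme and Gzmd) were called lower, where 6.62% of kept genes were, and 0 higher, where 3.96% were. Mcpt8 was 1.80-fold lower in that step and was not called (log2 difference -0.80). From D3 to D6T+, 2 of 6 members (Mcpt8 and Gzme) were called higher, where 5.16% of kept genes were, and 0 lower, where 1.79% were. Mcpt8 was 7.73-fold higher in D6T+ (log2 difference 2.89), and Gzme 2.73-fold (1.35). Of the kept genes, 43 including Mcpt8 itself differed upward by as much as Mcpt8, and 408 including Gzme by as much as Gzme. Both comparisons share the D3 library.

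The sorted fractions of each day asked how cells on the route to pluripotency differed from the other cells of the same day. In D6T- against D6T+, Mcpt8 and Gzme were the 2 of 6 members called lower, where 9.47% of kept genes were, and 0 were higher, where 2.93% were. Mcpt8 was 13.9-fold lower in FPKM (log2 difference -3.69), and only 9 kept genes, Mcpt8 among them, had a difference that low. Gzme was 10.3-fold lower (-2.90). Gzmd was 4.55-fold lower in FPKM, on 3 against 11 fragments, with overlapping counting intervals (0.0232 to 0.329 and 0.255 to 0.915 FPKM).

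On day 9 the same 2 members were called lower in the Thy-1- cells, where 6.45% of kept genes were, and 0 higher, where 1.81% were. Mcpt8 was 10.3-fold lower (log2 difference -3.05) and Gzme 12.1-fold (-2.54). On day 12 Mcpt8 alone of the 6 was called lower in the SSEA-1+ cells, where 3.03% of kept genes were, 2.33-fold in FPKM (-1.04), and 0 were called higher, where 4.79% were. Gzme was 2.00-fold lower in FPKM there, but -0.55 on the log2(FPKM + 1) scale. On day 16 Mcpt8 was again the called member, 16.8-fold lower in D16S+ (-2.10), where 15.2% of kept genes were lower, and 0 members were higher, where 11.8% were. Gzme was 9.17-fold lower in D16S+ on about 3 against 18 fragments, with a log2 difference of -0.89. The cuffdiff intervals overlapped for every member in each of the 11 comparisons, except for Gzme in iPSCs against D0. On each of the 4 days with 2 fractions, the fraction on the route to pluripotency thus had the lower FPKM of Mcpt8 and Gzme, although on day 12 the counting intervals of Gzme (0.482 to 1.42 and 1.17 to 2.45 FPKM) overlapped. In mESCs against iPSCs 0 of 6 members were called in either direction, where 6.79% of kept genes were lower and 7.41% higher. All 6 were at 0.164 FPKM or less in both libraries, so on this scale none could have been called.

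**Figure D3:**
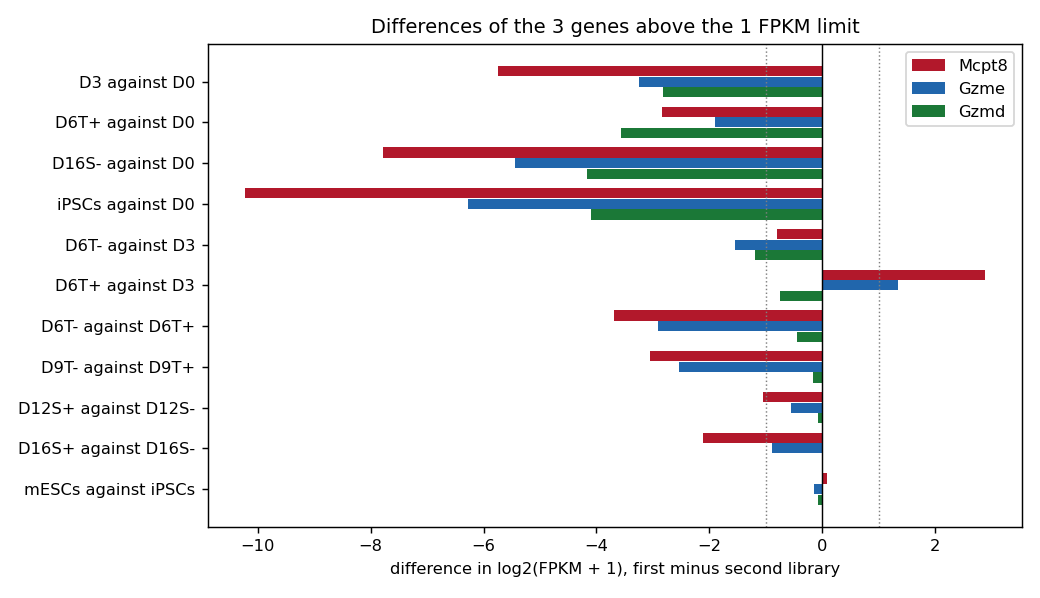
Difference in log2(FPKM + 1), first library minus second (x axis), in the 11 comparisons (y axis) for Mcpt8, Gzme and Gzmd (colours), with dotted lines at the 2-fold threshold. Bars of Mcpt8 and Gzme point to higher values only in D6T+ against D3 (2.89 and 1.35), where Gzmd is at -0.74, except for a Mcpt8 bar of 0.09 in mESCs against iPSCs.

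The remaining proteases of the locus were examined next. Of the 15 protease genes, 12 were above 0 in some library, while Gzmf, Gzmg and Mcpt2 were listed at 0 throughout. Of the 12, 9 were highest in D0, as were 17.5% of 19417 genes above 0 somewhere. The 9 include Mcpt8, which was picked by that level, Gzmb, which was on 1 fragment, and Mcpt4, which was above 0 in no other library. Cma2, a chymase-like gene 114 kb from the start of Mcpt8, was at 15.8 FPKM in D0, 0.928 in D3, 0.370 in D6T- and 4.50 in D6T+. Mcpt9 was at 2.58 FPKM in D0, 0.133 in D3, 0.0793 in D6T- and 1.02 in D6T+. By FPKM both thus had the order D0, D6T+, D3 and D6T- of Mcpt8 and Gzme. The counting intervals of D3 and D6T- overlapped, however, for Cma2 (0.594 to 1.38 and 0.177 to 0.680 FPKM) and for Mcpt9 (0.0573 to 0.262 and 0.0258 to 0.185). Only 76.2% and 82.4% of the stretches of 100 bases of Cma2 and Mcpt9 were at 1 place, so reads of that length from the rest cannot be assigned. Mcpt1, whose stretches were all at 1 place, was higher in D6T+ (1.96 FPKM) than in D0 (0.631) or D3 (0.386). Cma1, the mast cell chymase, reached 0.513 FPKM in D6T+ and 0.498 in D0, and Ctsg at most 0.217, in D0. Gzmn was at 0.403 FPKM in D0 and 0.0455 in D6T+, and Mcpt4 only in D0 (0.0550).

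Of these 7 chymase-locus genes (Ctsg, Cma1, Cma2, Mcpt1, Mcpt2, Mcpt4 and Mcpt9), 3 reached 1 FPKM. In D3 against D0, 2 of the 3 were called lower, where 8.67% of kept genes were, and none higher (5.76%), with a median log2 difference of -1.66 against -0.02 over all kept genes. In D6T- against D6T+, 2 of 3 were called lower, where 9.47% of kept genes were (median -1.26 against 0.00). All 3 reached 1 FPKM only in D0, D6T+ or D9T+, and Mcpt1 in D6T+ alone. The filter thus favoured lower values in D3 and D6T-, and these counts and medians support nothing. The sum over the 7 ran from 19.8 FPKM in D0 to 0 in iPSCs.

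Of the genes in the cluster that are not counted as proteases, Mcpt-ps1 was at 0.217 FPKM in D0, 0 in D3, 0.0460 in D6T- and 0.3995 in D6T+. Gm5801, annotated as a pseudogene, stayed between 28.0 and 50.8 FPKM in all libraries. Of the first expressed genes beyond the ends, Sdr39u1 stood at 22.1 FPKM in D0 and 28.6 in D3. Atp12a, a proton pump gene, was listed at 0 in D0 and reached 7.79 FPKM in D9T-. Neither flank was thus highest in D0.

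**Figure D4:**
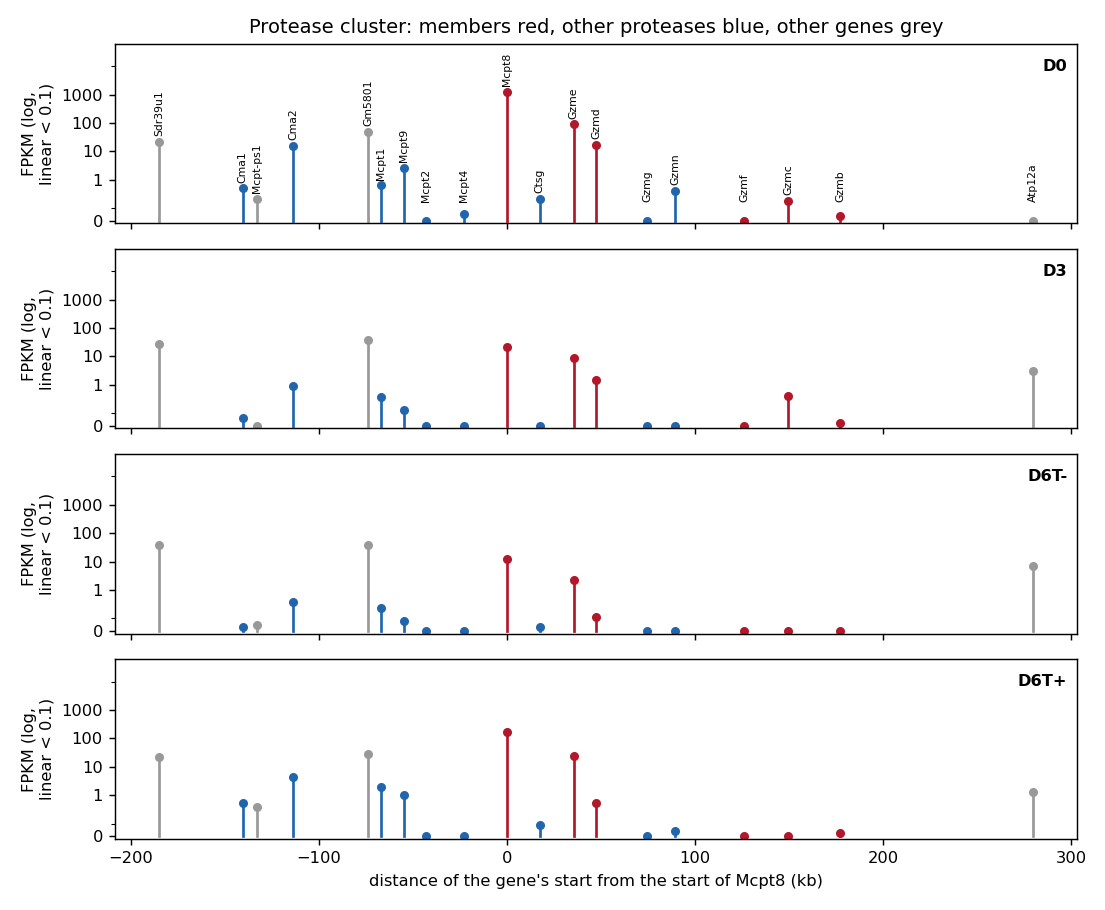
FPKM (y axes, log, linear below 0.1) of the genes in and beside the cluster against the distance of each gene's start from that of Mcpt8 (x axis, kb), in D0, D3, D6T- and D6T+, with the members in red, other proteases in blue and other genes in grey. Mcpt8, Gzme, Gzmd and Cma2 are lower in D3 than in D0, and Mcpt8, Gzme and Cma2 are higher again in D6T+ than in D6T-, while Gm5801 and Sdr39u1 change little by comparison.

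To see whether the granzymes came with the rest of the cytotoxic machinery, their partners were listed. Of the other granzymes and perforin (Gzma, Gzmg, Gzmk, Gzmm, Gzmn and Prf1), only Gzmm reached 1 FPKM, between 0.528 in D12S- and 2.99 in mESCs, and it was not called in any of the 11 comparisons. Prf1, the perforin gene, was listed at 0 in 10 of 12 libraries and was at most 0.0467 FPKM, in mESCs.

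All 12 genes for granzyme activation, storage and inhibition reached 1 FPKM in some library, and they did not move together. In D3 against D0, 3 were called higher, where 5.76% of kept genes were, and 2 lower, where 8.67% were, with a median of 0.08 against -0.02. In D6T- against D6T+, 6 were called lower (9.47% of kept genes) and 1 higher (2.93%), with a median of -0.99 against 0.00. Ctsc, whose product cathepsin C removes the activation dipeptide of granzymes, was at 5.96 FPKM in D0, 17.8 in D3, 17.9 in D6T- and 7.40 in D6T+. Srgn encodes serglycin, the proteoglycan on which granule proteases are packed, and was at 0.587 FPKM in D0 and 228 in D16S-, with 35.1 in D16S+ and 2.20 in iPSCs. Serpinb9b, a relative of the granzyme B inhibitor gene Serpinb9, was at 3.64 FPKM in D0, 38.1 in D3 and 25.8 in D6T+. Serpinb9 itself was at 3.23 FPKM in D0 and 3.21 in D6T+ against 0.307 in D6T-.

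Of 14 transcription factors known at granzyme genes in lymphocytes, 13 reached 1 FPKM. None was called in either direction in D3 against D0, where 8.67% of kept genes were lower and 5.76% higher, and the median of the 13 was -0.44 against -0.02 over kept genes. Stat5a and Junb lay close to the threshold: Stat5a was at 11.2 FPKM in D0 and 5.17 in D3, and Junb at 184 and 96.1. In iPSCs against D0, 10 were called lower, where 21.6% of kept genes were, and 2 higher, where 18.7% were (median -1.92 against 0.03). Runx2 was at 10.97 FPKM in D0, 5.68 in D3, 1.66 in D6T- and 8.57 in D6T+, the order that Mcpt8 had in these libraries. Of the other kept factors only Jun had this order, at 108, 60.5, 44.8 and 69.2 FPKM. Runx1 was at 9.13 FPKM in D0, 6.24 in D3, 3.40 in D6T- and 5.91 in D6T+, and thus lower in D6T+ than in D3. Ets1 (12.5 against 14.2 FPKM) and Fosl1 (64.7 against 71.2) were also lower in D6T+ than in D3. Tbx21, the T-bet gene of cytotoxic lymphocytes, was at 0.0191 FPKM in D0 and 6.06 in D9T-.

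The identity of the cells was examined with marker lists. All 13 fibroblast markers were at 1 FPKM or more in D0, and their sum was highest there. Of 12 mast cell markers, Fcer1a, Cpa3 and Mrgprb2 were listed at 0 in every library, 8 stayed under 1 FPKM throughout, and 2 were at 1 FPKM or more in D0: Il1rl1, the interleukin-33 receptor gene (36.9 FPKM), and Gata2 (21.0). The sum over the list ran from 6.08 FPKM in D6T- to 58.6 in D0. Il1rl1 was at 9.10 FPKM in D3, 2.15 in D6T- and 30.8 in D6T+, and Gata2 at 5.83, 2.92 and 9.03. Both had the order of Mcpt8 in these libraries, but Gata2 was at 13.0 FPKM in iPSCs, where Mcpt8 was listed at 0. Kit and Hdc, the other kept markers, had other orders. Kit, the stem cell factor receptor gene, was at 0.0364 FPKM in D0, 0.0917 in D3 and 33.6 in mESCs, and Hdc was highest in iPSCs at 1.53. Of the 4 kept mast cell markers, 2 were called lower in D3 against D0, where 8.67% of kept genes were, and 0 higher (5.76%).

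Of 10 basophil markers, Fcer1a and Il4 were listed at 0 in every library and Prss34 and Cd200r3 were at 0 in D0. Only Il3ra (31.3 FPKM) and Cebpa (2.45) were at 1 FPKM or more in D0, and the sum ran from 10.9 in mESCs to 37.0 in D9T+. Il3ra was at 16.3 FPKM in D3, 16.0 in D6T- and 23.5 in D6T+, the order of Mcpt8 in these libraries, but was highest in D9T+ at 32.6. Cebpa did not have this order, with 2.63 FPKM in D6T+. Of 12 markers of cytotoxic T and NK cells, 10 were at 0 in D0 and none reached 1 FPKM there, with a sum between 0.147 FPKM in D0 and 5.36 in D16S+. Ptprc, the CD45 gene of all leukocytes, was at 0.0273 FPKM in D0 and at most 0.425, in D6T-. The sum of the 10 leukocyte markers (31.0 to 431 FPKM) was highest in D0, where 421 FPKM were those of Arhgdib alone. In D16S+, where the sum was lowest, Arhgdib was at 5.58 FPKM and Laptm5 at 19.0.

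Some macrophage genes at low levels moved with Mcpt8 between D0 and D3, and others did not. Lyz2 was at 9.47 FPKM in D0 and 0.475 in D3, C1qa at 3.47 and 0.0661, and C1qb at 3.04 and 0.135. Tyrobp, from the leukocyte list, was at 3.38 and 0.149 FPKM. Cd68, in contrast, was at 9.05 FPKM in D0 and 19.2 in D3. Lyz2 and Cd14 had the order of Mcpt8 in D0, D3, D6T- and D6T+, with 0.162 and 1.89 FPKM in D6T- and 0.806 and 5.62 in D6T+. The other kept macrophage markers, Csf1r, Cd68, Itgam, C1qa and C1qb, did not. Of the kept leukocyte markers, Tyrobp, Fcer1g, Spi1 and Arhgdib had that order, and Laptm5, Coro1a and Lcp1 did not. Lyz2, Tyrobp, Fcer1g and Spi1 were under 1 FPKM in D3, D6T- and D6T+. Of the 7 macrophage markers kept, 4 were called lower in D3 than in D0, where 8.67% of kept genes were, and 2 higher, where 5.76% were (median log2 difference -1.11 against -0.02). Lyz2, C1qa and C1qb reached 1 FPKM only in D0. The filter thus favoured lower values in D3, and this count and median support nothing. The macrophage list as a whole (9 genes, 6 at 1 FPKM or more in D0) summed to 37.4 FPKM in D0 and 27.0 in D3, and was highest in D16S- at 145. Their part in the Mcpt8 values was not tested. The 12 trophoblast markers summed to 4.35 FPKM in D0 and were highest in D16S+ at 129, and the 8 pluripotent markers summed to 2.28 in D0 and 4783 in D16S+. In D0, where Mcpt8 was at 1201 FPKM, the mast cell markers summed to 58.6 FPKM, mostly Il1rl1 and Gata2. The basophil markers summed to 35.1 FPKM there, mostly Il3ra and Cebpa. The part of such cells in the Mcpt8 values was not tested.

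**Figure D5:**
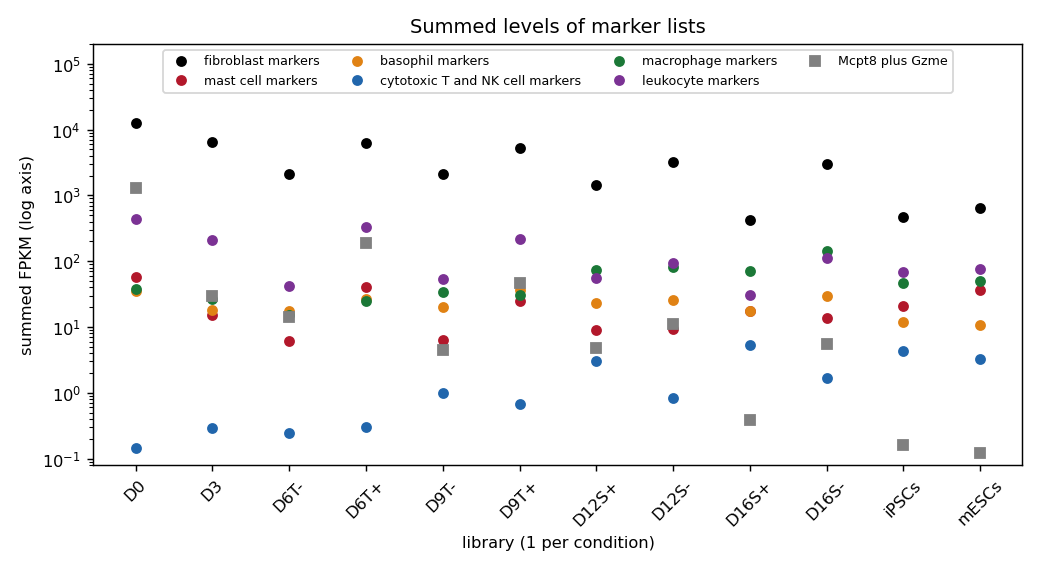
Summed FPKM (y axis, log) of the marker lists (coloured points) and of Mcpt8 plus Gzme (grey squares) in the 12 libraries (x axis, 1 per condition). The squares are highest in D0 and stand higher in D6T+ and D9T+ than in D6T- and D9T-. The fibroblast, mast cell and leukocyte points do the same. The markers of cytotoxic T and NK cells lie at 0.147 FPKM in D0 and are highest in D16S+ at 5.36 FPKM.

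The members were then set beside the fibroblast markers, whose part in the Mcpt8 values was not tested. Dcn, the decorin gene, was at 117 FPKM in D0, 7.85 in D3, 3.99 in D6T- and 44.0 in D6T+. Pdgfra, a receptor gene of mesenchymal cells, was 51.3-fold lower in D3 than in D0 and 18.3-fold higher in D6T+ than in D3. Lum, the lumican gene, was 275-fold lower in D3 than in D0, on 0.0159 FPKM in D3. These were the 3 markers with the largest ratios of D0 to D3, whereas Col1a1 was 4.33-fold lower and Vim was not lower. In D3 against D0, 11 of the 13 were called lower (8.67% of kept genes) and 0 higher (5.76%). Their median log2 difference was -2.11, against -5.74 for Mcpt8. In D6T+ Mcpt8 was at 13.9% and Gzme at 26.1% of their D0 levels, Cma2 at 28.4%, Dcn at 37.7% and Thy1, on which these cells were sorted, at 71.4%. Of the 13 fibroblast markers, 7 were called higher in D6T+ than in D3 (5.16% of kept genes) and 1 lower (1.79%), and in FPKM 8 were higher and 5 lower. Among the 5, Postn, the periostin gene, was at 74.6 FPKM in D0, 16.1 in D3 and 1.94 in D6T+, and Vim was at 3641, 3905 and 2953.

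Genes with a pattern like that of Mcpt8 were ranked by Pearson's r of log2(FPKM + 1) over the 12 libraries, among 8803 genes that reached 10 FPKM. The libraries are stages of 1 process and share D0 as their extreme, so r is only a description. Gzme ranked first (r = 0.983). It was followed by Dcn (0.980), Pear1 (0.979), Wnt5a (0.976), Plat (0.974), Dnajc10 (0.973), Parp8 (0.972), Chst2, Slc38a10 and Mmp3. Dcn encodes a matrix proteoglycan, Wnt5a a Wnt ligand, Plat a plasminogen activator and Mmp3 a matrix metalloproteinase. Without D0, over 11 libraries, Gzme ranked 15 (r = 0.967). For Gzme the leading genes were Gxylt2 (0.995), C1qtnf2 (0.992) and Wnt5a (0.991), then Cnrip1, Hhipl1, Fjx1, Mcpt8 at rank 7, Alcam, Frzb and Ccbe1. Gzmd ranked 1240 and Cma2 136 by likeness to Mcpt8 (r = 0.787 and 0.935).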

How the data were processed

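Poly(A) RNA was sequenced in 12 libraries, grouped by the labels. The authors mapped reads to mm9 with STAR, removed reads with more than 2 mismatches or more than 1 locus, and estimated expression with cuffdiff. The deposited values are FPKM with the interval ends of cuffdiff. Versions, annotation, read length and library scaling are not given in the sources used here. The labels name a stranded kit and the study's methods one that is not, and strand use in counting is not stated. A further 12 status columns were not used.

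Values were analysed as log2(FPKM + 1). Genes of at least 1 FPKM in at least 1 library were kept (14178), and 2-fold differences were called without a test. Positions are from GENCODE M1 (NCBIM37, 1-based), and promoters from RefSeq (GRCm38.p6). Functions were checked on simulated data. Python 3.11.15, pandas 2.3.3, scipy 1.17.1 and Biopython 1.88 were used. Named genes were the members, the rows of the cluster and its expressed flanks, the listed genes, the 10 genes most like Mcpt8 or Gzme, and the neighbours of Mcpt8 in rank. The members and lists were chosen with earlier results of these data known. The alternatives were another pseudocount, scaling, filter, threshold, stretch length and likeness measure.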

Additional observations from a re-analysis of the deposited data

How the results depend on the processing

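With 1 library per condition, no setting can replace a replicate, and low values rest on few fragments. Scaling to the same total FPKM or by the median of ratios left all member differences within 0.5 log2 and all counts of called members within 1.5 times. No member difference changed its direction under these or the pseudocount. A pseudocount of 0.1 gave log2 differences against D0 of -13.55 for Mcpt8 and -8.41 for Gzme in iPSCs, and -6.25 for Gzme in D16S-. It gave -3.43 for Gzme in D9T- against D9T+, -3.64 for Mcpt8 and -2.44 for Gzme in D16S+ against D16S-, and 0.73 and -0.74 for them in mESCs against iPSCs. For Gzmd it gave -1.53 in D6T- against D6T+, -1.14 in D9T- against D9T+ and -1.41 in D6T+ against D3, where the main values were -0.44, -0.16 and -0.74. With it, 2 members were called lower in D6T+ against D3 and 2 in D16S+ against D16S-. It called 3 lower in D6T- against D3, in D6T- against D6T+ and in D9T- against D9T+. In D6T+ and in D16S- against D0 it called 4 lower. A 4-fold threshold called 0 members lower in D6T- against D3 and in D12S+ against D12S-, and 1 higher in D6T+ against D3. Cuffdiff intervals were apart for 1 member in iPSCs against D0 (Gzme) and for 0 in the other comparisons. No filter on low values lowered all 22 background shares by more than 1.5 times, and a filter at 5 FPKM did so for 0. Of the 10 genes most like Mcpt8, 1 was shared with the Spearman ranking, 3 with a pseudocount of 0.1 and 3 without D0; for Gzme these were 2, 3 and 5, so which genes are named depends on the measure. For stretches of 50 bases the share at 1 place was 76.8% for Gzmd, 75.1% for Gzme and 89.0% for Gzmf. Of 242 list medians under the alternatives, 29 moved by more than 0.5, all with the pseudocount of 0.1, and 9 changed sign, each from a main median within 0.19 of 0. No paired analysis was possible because no condition had a second library, and the 2 fractions of a day are different sorts.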

Other observations

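Genes with a pattern like that of Gzmd were ranked after its values had been seen. Gzmd reached 10 FPKM only in D0, so the ranking rests largely on that library and supports nothing. It was not repeated with the other likeness measures. Over the 12 libraries the 10 highest r among 8803 genes belonged to Cav3 (0.985), Tfpi2 (0.976), Atp2a1 (0.975), Kcnmb4, Ccl12, Tmem8c, Lrrc15, Mmp10, Mybph and Myl1, none of which was among the 10 most like Mcpt8 or Gzme. Cav3, Atp2a1, Tmem8c, Mybph and Myl1 are known from skeletal muscle, as the genes of caveolin-3, a calcium pump, the fusion protein myomaker, a myosin-binding protein and a myosin light chain. Cav3 was at 11.9 FPKM in D0, 1.59 in D3 and 0.0725 in D6T+. Tmem8c was at 19.5 FPKM in D0, 4.36 in D3 and 0.691 in D6T+, and Myl1 at 32.3, 3.82 and 1.08. Mmp10, a matrix metalloproteinase gene, was at 95.4 FPKM in D0, 7.85 in D3 and 4.21 in D6T+. Ccl12, a chemokine gene, was at 0.804 FPKM in D3 and 1.73 in D6T+. Without D0, r with Gzmd was 0.973 for Tfpi2, 0.957 for Tmem8c, 0.924 for Mmp10, 0.895 for Mybph and 0.876 for Cav3. It was 0.873 for Lrrc15, 0.814 for Myl1, 0.744 for Atp2a1, 0.690 for Kcnmb4 and 0.676 for Ccl12.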
